A study of Mus musculus with 12 samples.

Results

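A set of 9 receptor-signalling genes of the mouse heart were examined: the adrenoceptor genes Adrb1, Adra1a and Adra1b, the muscarinic receptor gene Chrm2, the dopamine receptor gene Drd2, the adenosine receptor gene Adora1, the G protein gene Gnas, the receptor kinase gene Grk5 and the arrestin gene Arrb1. They were taken by symbol from a table of 54949 features, each symbol matched 1 row, and all 9 members were among the 15114 features with enough counts to be tested. Poly-A-selected RNA was sequenced from ventricles, with the atria removed, of wild-type (WT) male C57BL/6N mice that were 8 weeks old when the 5-week protocol began. The study set mice with heart failure of preserved ejection fraction (HFpEF), induced by a high-fat diet with L-NAME (a nitric oxide synthase inhibitor) at 0.5 g/L in the drinking water, against mice on a normal diet and plain water. For all 12 samples the labels contradict each other. The 6 samples whose titles and treatment labels say HFpEF, high-fat diet and L-NAME have libraries named con-1 to con-6, and the 6 titled and labelled as controls have libraries named HF-1 to HF-6. Here each group goes by its library names, con-named or HF-named, and every difference is HF-named relative to con-named. Which group received the diet and L-NAME cannot be told from these labels, so no direction below can be assigned to the disease model. The labels do not say that each sample was a separate mouse, so p-values measure only the spread between these samples.

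In the heart, noradrenaline and adrenaline act on beta-adrenoceptors, which couple through the stimulatory G protein alpha subunit to adenylyl cyclase, cyclic AMP and protein kinase A, and raise the rate and force of contraction. Acetylcholine on the M2 receptor and adenosine on its A1 receptor couple to inhibitory G proteins, and alpha1-adrenoceptors couple to phospholipase C and protein kinase C. G protein-coupled receptor kinases phosphorylate activated receptors, and arrestins then bind and uncouple them.

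Of the 9 members, 3 passed the test between the groups: Adra1a and Grk5 were higher and Drd2 was lower in the HF-named libraries. Genes called at an adjusted p under 0.05 (quasi-likelihood test of edgeR, adjusted by Benjamini-Hochberg) made up 13.3% of all genes tested, with 8.28% higher and 5.05% lower. The HF-named and con-named values did not overlap for 5.36% of all genes tested, and for 0 of the 9 members. The median log2 fold change over all genes tested was -0.01, and the median size of a change in either direction was 0.13. Adra1a, Grk5 and Drd2 differed by more than that size. So did Adora1 (-0.22) and Adra1b (-0.134 against 0.132), which did not pass, so that size does not set the called members apart. With library totals in place of the TMM scaling the median over all genes was -0.13, and 483 genes were called higher and 2582 lower, against 1252 and 764. On that scale Adra1b, Adora1 and Arrb1 were called lower too, so 6 members passed. The plot of each member by library shows all 108 values.

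**Figure D1:**
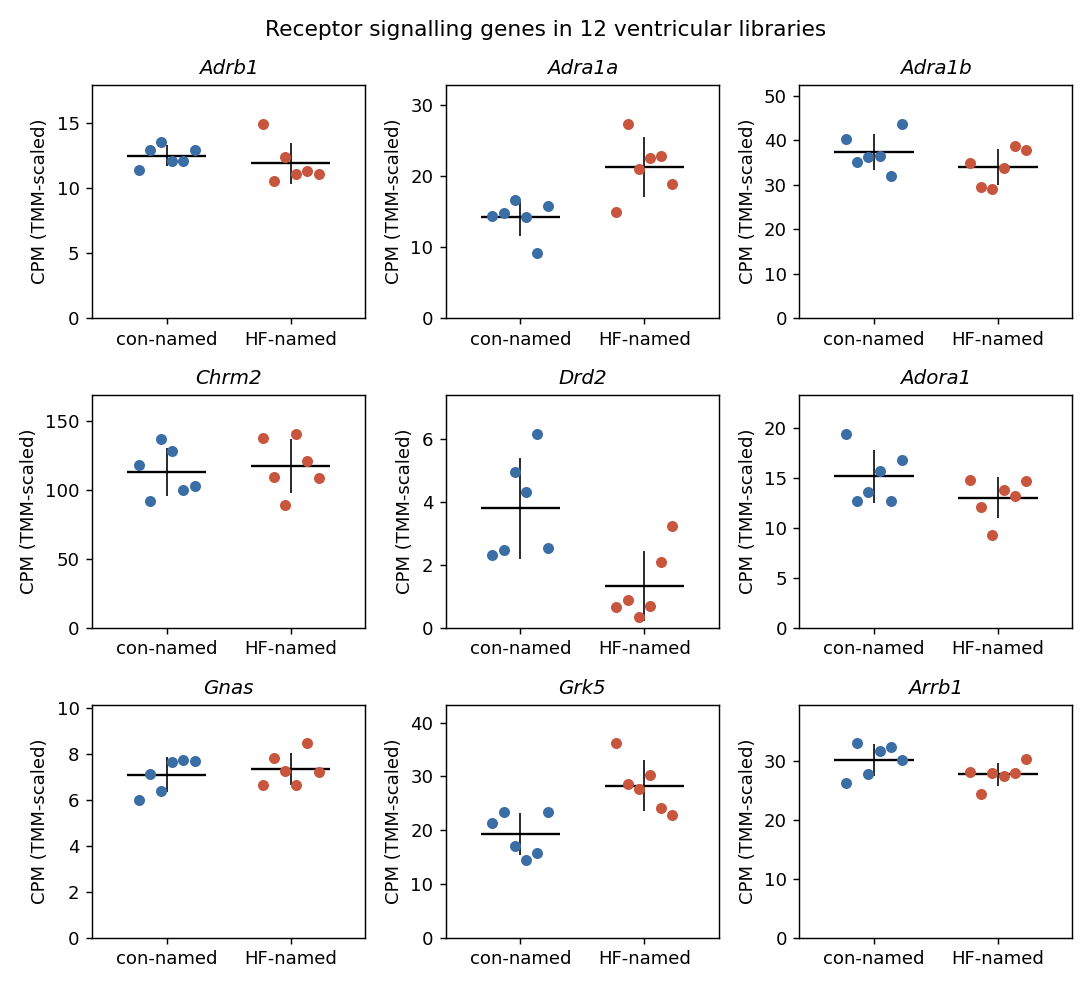
CPM (reads per gene relative to the TMM-scaled library size, linear axes starting at 0) of each member in the 6 con-named and 6 HF-named libraries, with points for libraries, a bar for the mean and whiskers of 1 SD. Adra1a and Grk5 have 5 of 6 HF-named points above every con-named point, Drd2 has 5 of 6 below, and the groups overlap in all 9 panels.

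The promoter windows of members that passed the test are shown because they are the regulatory sequence nearest to the genes that differed. That of Adrb1 is shown beside them as a receptor gene that did not pass. Each runs from 250 bases before to 50 bases after a RefSeq transcript start (GRCm38.p6), 5′ to 3′ on the gene's strand, and capitals mark TGACG, the core of the cyclic AMP response element. The windows lie at chr9:49340153-49340452 (Drd2), chr19:60889499-60889798 (Grk5) and chr19:56721867-56722166 (Adrb1), all on the plus strand.
Drd2: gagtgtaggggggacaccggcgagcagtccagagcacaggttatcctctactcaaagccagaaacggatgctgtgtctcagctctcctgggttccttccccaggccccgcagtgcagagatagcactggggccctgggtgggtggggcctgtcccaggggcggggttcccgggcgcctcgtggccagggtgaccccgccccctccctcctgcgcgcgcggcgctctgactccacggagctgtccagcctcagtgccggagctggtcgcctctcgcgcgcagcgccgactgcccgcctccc
Grk5: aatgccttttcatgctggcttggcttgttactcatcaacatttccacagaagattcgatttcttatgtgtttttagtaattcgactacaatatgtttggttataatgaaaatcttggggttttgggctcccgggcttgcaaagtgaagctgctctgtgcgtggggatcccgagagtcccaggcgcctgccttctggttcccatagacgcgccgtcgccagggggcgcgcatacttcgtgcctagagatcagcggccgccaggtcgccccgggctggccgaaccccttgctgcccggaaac
Adrb1: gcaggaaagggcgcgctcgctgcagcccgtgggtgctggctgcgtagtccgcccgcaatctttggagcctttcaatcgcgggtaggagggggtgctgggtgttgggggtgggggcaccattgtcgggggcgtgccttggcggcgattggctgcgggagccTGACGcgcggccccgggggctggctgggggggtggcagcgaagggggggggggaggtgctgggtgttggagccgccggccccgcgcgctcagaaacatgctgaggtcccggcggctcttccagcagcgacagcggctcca
The RefSeq table held windows for 7 of the 9 members, 12 windows in all, and none for Adra1a and Arrb1. The whole element, TGACGTCA on either strand, was in 0 of the 12 windows and in 1.79% of 32851 promoter windows of the same length. The core TGACG on either strand, which the whole element also contains, was in 4 of the 12 windows and in 20.8% of all windows. It lay at -90 from the Adrb1 start and in 3 windows of Gnas. A pair of the Gnas windows overlap and hold the same match, so the 4 windows hold 3 distinct sites. A match is a description of letters and not of factor binding.

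Adrb1 encodes the beta1-adrenoceptor, the main beta-adrenoceptor of ventricular muscle (ENSMUSG00000035283, chr19:56722199-56733113 on the plus strand of GRCm38). Its level ranged from 11.4 to 13.5 CPM (median 12.5) in the con-named libraries and from 10.6 to 15.0 CPM (median 11.2) in the HF-named libraries. HF-named replicate 1 was the highest of the 12 libraries, while 4 of its group were lower than any con-named library. The means were 12.5 ± 0.779 and 11.9 ± 1.61 CPM (SD, n = 6 each), which is a log2 fold change of -0.07 (edgeR adjusted p = 0.615, SE 0.08). Adrb3, the beta3-adrenoceptor gene, had too few counts to test.

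Adra1a, the gene of the alpha1A-adrenoceptor, was higher in the HF-named libraries (ENSMUSG00000045875, chr14:66635251-66771168, plus strand). It ranged from 9.16 to 16.7 CPM (median 14.6) in the con-named group and from 14.9 to 27.4 CPM (median 21.8) in the HF-named group. HF-named replicate 1, at 14.9 CPM, was the only one of its group inside the con-named range, and con-named replicate 5, at 9.16 CPM, stood below the rest of its own group. Means of 14.2 ± 2.63 and 21.3 ± 4.20 CPM (SD, n = 6 each) gave a 1.5-fold difference, a log2 fold change of 0.58 (edgeR adjusted p = 0.0124, SE 0.14). Without con-named replicate 5 the log2 fold change was 0.47 (edgeR adjusted p = 0.0212). The call held in each of the 12 fits that left out 1 library, with adjusted p from 0.00456 to 0.0308 (edgeR). The authors' deposited table gives Adra1a a log2 fold change of 0.5851 with an adjusted p of 0.003291.

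Adra1b, the gene of the alpha1B-adrenoceptor, had 32.1 to 43.7 CPM (median 36.4) in the con-named libraries and 28.9 to 38.7 CPM (median 34.3) in the HF-named libraries (ENSMUSG00000050541, chr11:43774606-43901210, minus strand). Only 2 HF-named libraries fell below the con-named range. Its log2 fold change of -0.13 (SE 0.08) had an edgeR adjusted p of 0.316. The third gene of this family, Adra1d, had a log2 fold change of -0.04 (edgeR adjusted p = 0.904, SE 0.17). Because both genes are alpha1-adrenoceptors, their balance per gene length was compared library by library. The ratio of Adra1a to Adra1b was 0.111 to 0.178 (median 0.146) in the con-named group and 0.165 to 0.360 (median 0.244) in the HF-named group. It exceeded every con-named value in 5 of 6 HF-named libraries, and in both groups Adra1b remained the more abundant of the pair. In bulk tissue, fewer cells of a type and less RNA per cell cannot be told apart, and this holds for every member.

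Chrm2, the gene of the M2 receptor through which the vagus nerve slows the heart, showed wide and overlapping ranges (ENSMUSG00000045613, chr6:36388084-36528414, plus strand). It had 92.0 to 137 CPM (median 110) in the con-named libraries and 89.1 to 141 CPM (median 115) in the HF-named libraries. The highest and the lowest of the 12 values were both in the HF-named group. The log2 fold change was 0.06 (edgeR adjusted p = 0.775, SE 0.11), and its sign turned to -0.055 when library totals replaced the TMM scaling. The ratio of Chrm2 to Adrb1 per gene length was 2.92 to 4.37 (median 3.78) in con-named and 2.96 to 5.23 (median 4.14) in HF-named libraries, with 2 HF-named libraries above the con-named range. With exon bases of the GENCODE M21 annotation as the length of both genes, the medians would be 5.14 and 5.62.

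Chrm3, the M3 receptor gene, is not a member but was the other muscarinic receptor with enough counts to test. It fell from 0.942 ± 0.288 to 0.370 ± 0.146 CPM (SD, n = 6 each), which is a log2 fold change of -1.32 (edgeR adjusted p = 0.00745, SE 0.28), and all 6 HF-named libraries were below every con-named one. The fall rests on 100 counts over the con-named libraries and 37 over the HF-named ones, and DESeq2 gave it no adjusted p. The edgeR call held in each of the 12 fits that left out 1 library. The authors' deposited table gives Chrm3 a log2 fold change of -1.3393 and an adjusted p of 0.007858. The 2 tested subunit genes of the potassium channel that M2 and A1 receptors open, Kcnj3 and Kcnj5, had log2 fold changes of 0.20 and 0.19 and did not pass (edgeR adjusted p = 0.241 and 0.0914).

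Drd2, which encodes a dopamine receptor coupled to inhibitory G proteins, differed most of the members and also varied most (ENSMUSG00000032259, chr9:49340627-49408177, plus strand). Its raw counts were 42, 51, 74, 73, 117 and 42 in con-named replicates 1 to 6 and 10, 12, 5, 12, 37 and 68 in HF-named replicates 1 to 6. Scaled, it ranged from 2.31 to 6.16 CPM (median 3.42) in the con-named group and from 0.333 to 3.23 CPM (median 0.788) in the HF-named group. HF-named replicates 1 to 4 were the lowest of the 12 libraries, replicate 5 lay just under the con-named range, and replicate 6 lay inside it. Means of 3.78 ± 1.6 and 1.32 ± 1.12 CPM (SD, n = 6 each) gave a log2 fold change of -1.44 (edgeR adjusted p = 0.0275, SE 0.40), or 2.71-fold lower. The coefficient of variation between libraries was 42.2% among con-named and 84.8% among HF-named libraries, against 6.23% to 20.5% for the other members in either group.

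The call for Drd2 depended on single libraries. The edgeR adjusted p was above 0.05 when con-named replicate 4 (0.0523) or 5 (0.0694) was left out, and likewise for HF-named replicate 1 (0.0548), 2 (0.0592) or 4 (0.0634). The call was lost in these 5 fits and held in the other 7. The log2 fold change stayed between -1.97 and -1.25 over all 12 such fits. In the authors' deposited table Drd2 has a log2 fold change of -1.5043 and an adjusted p of 0.06431, which is not under 0.05. Their adjustment ran over 33183 genes, against 15114 here, so the adjusted values are not on the same footing. The other dopamine receptor genes had too few counts to test, and Drd4 had 0 counts in every library.

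Over the 12 libraries, with each group's mean removed, the gene most like Drd2 among 9911 ranked genes was Cntn2, which encodes contactin-2, an adhesion protein known in the heart as a marker of conduction-system cells (Pearson r of log2 CPM 0.976, n = 12, a description). Itfg2 (r = 0.950) and Rabl3 (r = 0.861) came next. Cntn2 was at 4.06, 4.31, 10.4, 10.9, 12.9 and 5.36 CPM in con-named replicates 1 to 6 and at 1.46, 1.81, 0.732, 2.47, 6.41 and 8.44 CPM in HF-named replicates 1 to 6. The same HF-named replicates 5 and 6 were high for both genes, and con-named replicates 3, 4 and 5 were high for both. The log2 fold change of Cntn2 was -1.10 and did not pass (edgeR adjusted p = 0.112). It passed in 1 of the 12 fits without 1 library, the one without HF-named replicate 6, which holds the highest value of the lower group (-1.59, edgeR adjusted p = 0.0286), and in 0 of the 7 other alternatives. Over the 12 fits the adjusted p reached 0.231. The ratio of Drd2 to Cntn2 CPM was 0.395 to 0.573 (median 0.476) in con-named and 0.286 to 0.480 (median 0.418) in HF-named libraries. It was below the con-named range in 3 HF-named libraries. Over the 12 libraries the ratio spanned far less than either gene alone. Cntn2 was picked for its likeness to Drd2 in these same libraries. The shared high replicates and the narrow ratio largely follow from that choice and are not separate evidence.

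**Figure D2:**
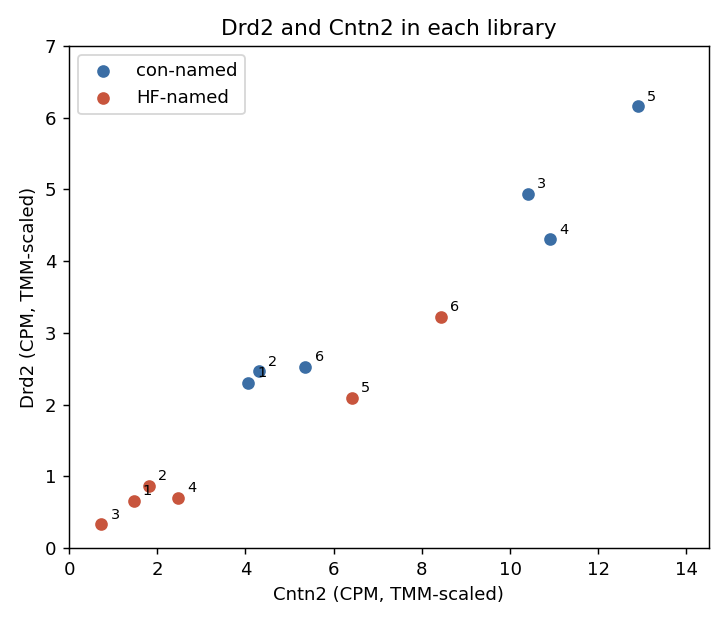
Drd2 against Cntn2 in CPM (linear axes starting at 0) for each of the 12 libraries, numbered by replicate and coloured by group. Cntn2 was picked for its likeness to Drd2 in these libraries. The points rise together from lower left to upper right, with HF-named replicates 1 to 4 at its lower end and HF-named replicates 5 and 6 among or near the con-named libraries.

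Markers of the conduction system were therefore listed after the values were seen. Of the 13 genes listed, 12 were tested, 1 was higher and 3 were lower in the HF-named libraries. Over all genes tested, 8.28% were higher and 5.05% lower. Hcn4, the pacemaker channel gene, rose (log2 fold change 0.36, edgeR adjusted p = 0.0252). Irx3, a transcription factor gene of the ventricular conduction system, fell (-0.50, edgeR adjusted p = 0.00696), as did Gja5, which encodes connexin 40 (-0.40, edgeR adjusted p = 0.0336), and Kcne1, a potassium channel subunit gene (-0.84, edgeR adjusted p = 0.0147). The Hcn4 call was lost with library totals (0.24, edgeR adjusted p = 0.0896) and when HF-named replicate 2 or 4 was left out (0.30 and 0.35, edgeR adjusted p = 0.0585 and 0.0514). The Gja5 call was lost when con-named replicate 2, 4 or 5 (edgeR adjusted p = 0.0692, 0.0535 and 0.0758) or HF-named replicate 2, 4 or 5 (0.0641, 0.0782 and 0.0753) was left out, at log2 fold changes of -0.41 to -0.34. The median log2 fold change of the 12 was -0.38, and that of the 11 tested genes other than Cntn2 was -0.35. The summed level of the list was 105 to 148 CPM (median 122) in con-named and 94.9 to 115 CPM (median 103) in HF-named libraries, and no gene of the list was at 0 in all libraries. Leaving out Cntn2, which prompted the list, the within-group correlations of the other 12 genes with Drd2 ran from -0.31 to 0.92 (median 0.38, n = 12 libraries), and 9 were positive. The genes called between the groups followed Drd2 little within groups, with r of -0.29 for Irx3, -0.03 for Gja5, 0.25 for Kcne1 and 0.28 for Hcn4. The part of conduction tissue in the Drd2 difference was not tested. Of the markers of cardiac neurons, 0 of 3 tested genes passed. Their list summed to 13.5 to 15.6 CPM in con-named and 11.1 to 16.0 CPM in HF-named libraries, and Chat was at 0 in every library.

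Adora1, the gene of the A1 adenosine receptor, had 12.7 to 19.4 CPM (median 14.6) in con-named and 9.32 to 14.8 CPM (median 13.5) in HF-named libraries (ENSMUSG00000042429, chr1:134199223-134235431, minus strand). The ranges overlapped, with 2 HF-named libraries below the con-named range. The log2 fold change was -0.22 (edgeR adjusted p = 0.256, SE 0.12). Of its exon bases, 20.1% overlap exons of Mybph on the opposite strand. Whether reads in this overlap were counted for Adora1, for Mybph or for neither was not tested, since the strand setting is not given. Adora2a, another adenosine receptor gene, with 12.1 ± 1.41 and 10.3 ± 1.95 CPM (SD, n = 6 each), also did not pass (log2 fold change -0.25, edgeR adjusted p = 0.153).

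**Figure D3:**
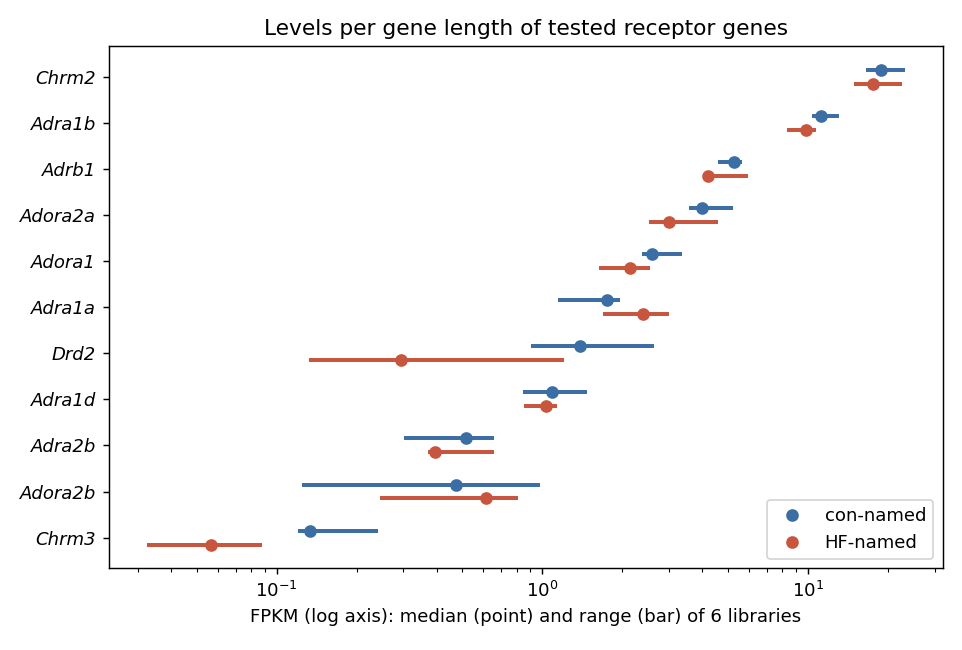
Deposited FPKM (log axis) of receptor genes with enough counts to test, in the con-named and HF-named libraries, points being medians and bars the range of 6 libraries. Chrm2 and Adra1b lead in both groups, Adra1a is the 1 receptor gene called higher, and Drd2 and Chrm3 are displaced to lower values in the HF-named libraries.

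Levels of different genes were compared per gene length, in the deposited FPKM. The plot of receptor levels shows the order. In the con-named libraries the medians of the members fell from Chrm2 (18.8 FPKM) through Adra1b (11.2), Grk5 (6.14), Adrb1 (5.27), Arrb1 (2.83), Adora1 (2.58), Adra1a (1.76) and Drd2 (1.39) to Gnas (0.694 FPKM). Over all 12 libraries, Chrm2 did not overlap Adra1b, and Adrb1 did not overlap Arrb1, while all other neighbours in this order overlapped. For 7 of the 9 members the gene length behind the deposited FPKM equals the exon bases of GENCODE M21, but for Grk5 it is 3165 against 7055 bases and for Adrb1 2491 against 3382. With the exon bases, an alternative chosen after seeing the data, the con-named medians of Grk5 and Adrb1 would be 2.75 and 3.88 on the same scale. Grk5 would then rank below Adrb1 and Arrb1, Adrb1 would not overlap Adra1b, and it would overlap Arrb1. In the HF-named libraries the median of Adra1a was 2.39 FPKM and that of Drd2 was 0.293 FPKM, the lowest of the members. Among 23 receptor genes of the adrenergic, muscarinic, dopamine and adenosine families, 12 were tested and 3 passed, Adra1a higher and Drd2 and Chrm3 lower. The 11 untested ones had at most 81 counts each over all libraries.

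Gnas encodes the stimulatory G protein alpha subunit, to which beta-adrenoceptors couple, along with other imprinted transcripts (ENSMUSG00000027523, chr2:174284320-174346744, plus strand). It had 96 to 147 counts in con-named and 100 to 152 counts in HF-named libraries, and in the con-named libraries its median level per length was the lowest of the 9 members. In CPM it ranged from 5.99 to 7.74 (median 7.39) in the con-named group and from 6.65 to 8.46 (median 7.23) in the HF-named group. The groups overlapped, with a log2 fold change of 0.05 (edgeR adjusted p = 0.789, SE 0.09), whose sign turned to -0.073 with library totals in place of TMM. Per length, Gnas stood at 0.0119 to 0.0150 times Gnai2, the gene of an inhibitory alpha subunit, in the con-named libraries and at 0.0128 to 0.0189 times in the HF-named libraries. The length used for Gnas is that of all its exons, 11186 bases, while transcript Gnas-208 of the subunit has 1716 bases. These levels per length therefore cannot be read as those of the subunit mRNA.

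Whether the Gnas count measures the mRNA of the stimulatory subunit cannot be told, and the annotation has an overlap at this gene. In GENCODE M21 a gene model on the minus strand, Gm20721 (ENSMUSG00000090625, chr2:174330319-174346712, protein coding), shares 1469 of its 1484 exon bases (99.0%) with Gnas. Its exons cover 13.1% of all Gnas exon bases, but 96.4% (1139 of 1182) of the coding bases of transcript Gnas-208, which encodes the subunit. The model itself had 0 to 5 counts per library. How reads in this overlap were counted was not tested, since the strand setting of the counting is not given in the sources used here.

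Grk5, the gene of a receptor kinase that phosphorylates beta-adrenoceptors and other activated receptors, was higher in the HF-named libraries (ENSMUSG00000003228, chr19:60889749-61095968, plus strand). It ranged from 14.4 to 23.4 CPM (median 19.2) in con-named and from 22.8 to 36.2 CPM (median 28.1) in HF-named libraries. HF-named replicate 6, at 22.8 CPM, was the only one of its group below the con-named maximum. Means of 19.2 ± 3.94 and 28.3 ± 4.76 CPM (SD, n = 6 each) gave a 1.46-fold difference, a log2 fold change of 0.55 (edgeR adjusted p = 0.0121, SE 0.13). The call held in each of the 12 fits without 1 library, with edgeR adjusted p from 0.00913 to 0.0352. The authors' deposited table gives Grk5 a log2 fold change of 0.5545 and an adjusted p of 0.002721.

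No other kinase gene of this family was called higher. Grk2, the other main receptor kinase of the heart, was at 65.9 ± 3.24 and 67.9 ± 2.46 CPM (SD, n = 6 each; log2 fold change 0.04 with an SE of 0.04, edgeR adjusted p = 0.578). The ratio of Grk5 to Grk2 per gene length was 0.301 to 0.534 (median 0.416) in con-named and 0.501 to 0.740 (median 0.578) in HF-named libraries, and 4 HF-named libraries exceeded the con-named range. With exon bases of GENCODE M21 as the length of both genes the medians would be 0.187 and 0.259, and the same count of 4 would hold, since the length is shared by all libraries. Grk3 fell from 18.9 ± 0.791 to 15.8 ± 1.78 CPM (SD, n = 6 each), with all 6 HF-named libraries below the con-named ones (log2 fold change -0.26 with an SE of 0.07, edgeR adjusted p = 0.0265). Without HF-named replicate 6 the Grk3 call was lost (log2 fold change -0.22, edgeR adjusted p = 0.0565). It was also lost with the replicate number as a block (edgeR adjusted p = 0.0538).

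Arrb1, the gene of beta-arrestin 1, had 26.3 to 33.0 CPM (median 31.0) in con-named and 24.5 to 30.4 CPM (median 28.1) in HF-named libraries (ENSMUSG00000018909, chr7:99535466-99606771, plus strand). The ranges overlapped and the log2 fold change of -0.12 (SE 0.07) had an edgeR adjusted p of 0.233. Arrb2, the gene of beta-arrestin 2, did not pass either (log2 fold change -0.20 with an SE of 0.11, edgeR adjusted p = 0.231). Of the 7 receptor kinase and arrestin genes, all were tested, 1 was higher and 1 was lower.

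**Figure D4:**
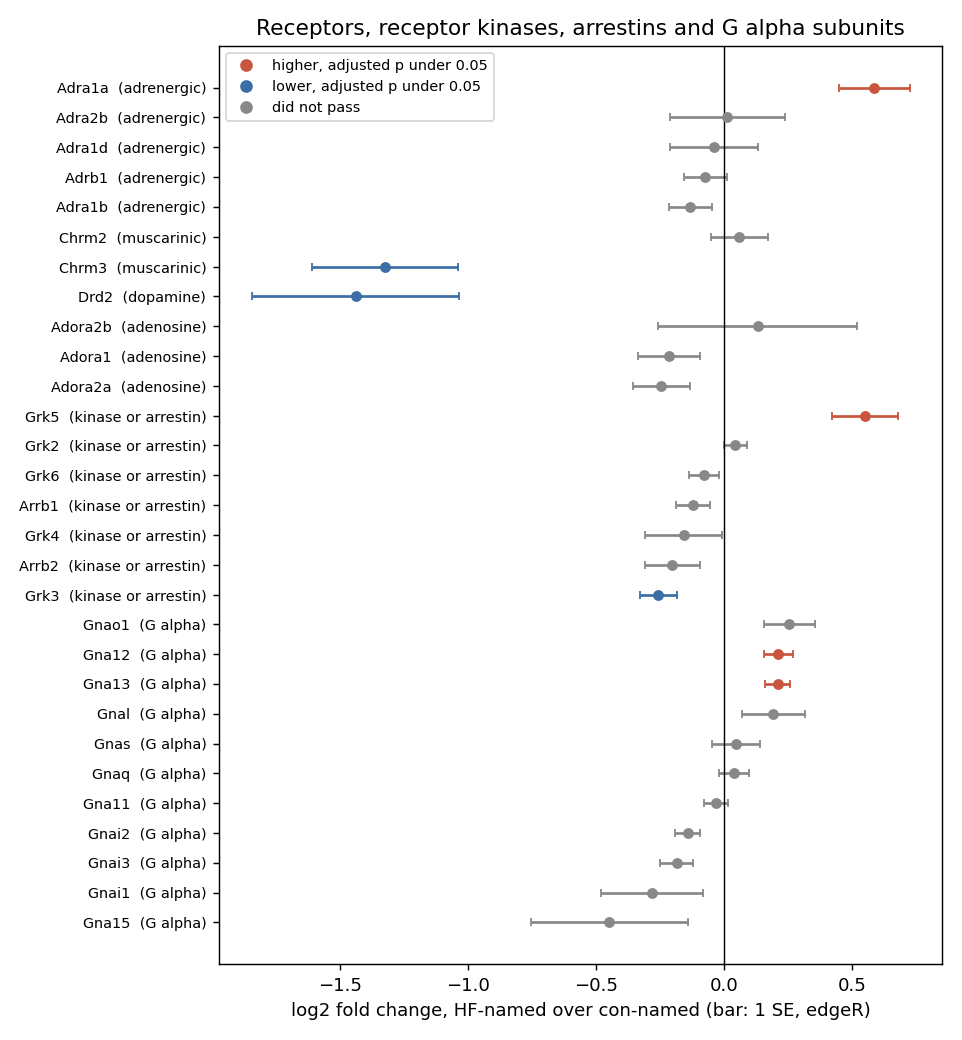
Log2 fold change, HF-named over con-named, of tested receptor, receptor kinase, arrestin and G alpha genes, with bars of 1 SE (edgeR) and colour for the call. Adra1a (0.58) and Grk5 (0.55) stand to the right, Drd2 (-1.44) and Chrm3 (-1.32) to the left, and most other genes lie near 0.

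Among the members, levels across libraries with group means removed were most alike for Adra1b and Adora1 (Pearson r of log2 CPM 0.78, n = 12) and most opposed for Drd2 and Grk5 (r = -0.72, n = 12). The points share their libraries and depth, and these values are descriptions. The genes most like Adra1a were Armc2 (r = 0.960), Nlrx1 (0.934) and Irx1 (0.885). For Grk5 they were Ttll7 (0.897), Rgs5 (0.876) and Hsph1 (0.866). Mylk3, the cardiac myosin light chain kinase gene, was most like Chrm2 (0.939), followed by Ubqln1 (0.937) and Snap23 (0.933). The leading genes for the other members were Mfsd6 for Adrb1 (0.924), Rtn4ip1 for Adra1b (0.905), Wdr77 for Adora1 (0.890), Urb1 for Gnas (0.879) and Nr2f6 for Arrb1 (0.929), all with n = 12. Each was picked as highest among 9910 ranked genes, which by itself raises r, and no background of r was computed.

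The members and the genes around them were taken from 18 lists, chosen with earlier results of these data known. All 9 members and their 3 calls are included in the counts that follow. The lists hold 179 distinct genes, of which 145 were tested, 25 were higher and 15 were lower in the HF-named libraries. That is 17.2% higher and 10.3% lower, beside 8.28% and 5.05% of all genes tested. The median log2 fold change over the 145 was -0.02, beside -0.01 for all genes tested. The plot of counts by list shows where the calls fell.

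**Figure D5:**
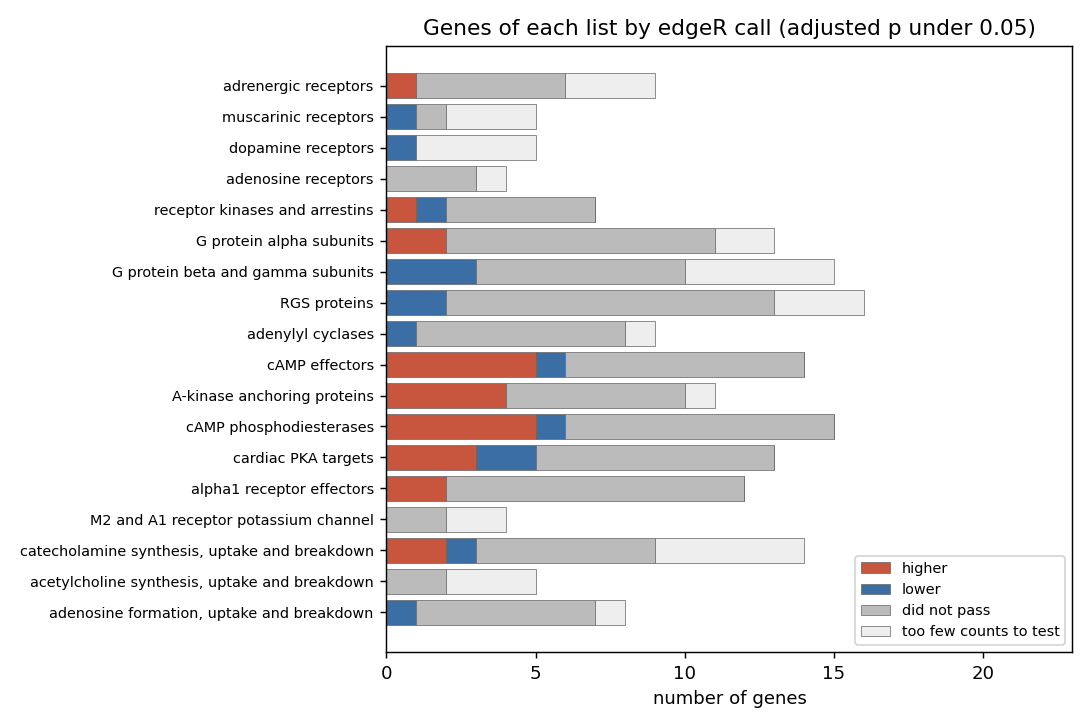
Number of genes in each of the 18 lists that were higher, lower, not past the test or too low to test (edgeR, adjusted p under 0.05). The lists for cyclic AMP effectors and cyclic AMP phosphodiesterases have 5 genes higher and 1 lower each, the anchoring proteins 4 higher and 0 lower, and the G beta and gamma subunits 0 higher and 3 lower.

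Downstream of the beta-adrenoceptor, 8 adenylyl cyclase genes were tested and 1 passed. Adcy1, a calcium-stimulated cyclase gene, fell from 5.22 ± 1.51 to 2.55 ± 1.13 CPM (SD, n = 6 each; log2 fold change -1.03 with an SE of 0.24, edgeR adjusted p = 0.0128). The main cyclases of ventricular muscle, Adcy5 and Adcy6, named here after their values were seen, had log2 fold changes of 0.17 and 0.10 (edgeR adjusted p = 0.0647 and 0.450). Of 11 tested G alpha genes, Gna12 and Gna13 rose (both log2 fold changes 0.21, edgeR adjusted p = 0.0217 and 0.0118). Both calls were lost with library totals (0.10 and 0.09, edgeR adjusted p = 0.227 and 0.254). The Gna12 call also failed when con-named replicate 5 or 6 or replicate 4 of the HF-named group was left out (0.16, 0.18 and 0.19, edgeR adjusted p = 0.0509, 0.0619 and 0.0545). Of 10 tested beta and gamma subunit genes, Gnb2 (log2 fold change -0.23, edgeR adjusted p = 0.0141), Gnb3 (-0.89, 0.0110) and Gng7 (-0.86, 0.0289) fell, and none rose. The Gnb2 call was lost with the replicate number as a block (edgeR adjusted p = 0.0561). The authors' deposited table gives Gng7 an adjusted p of 0.0744. The Gng7 call failed when replicate 2 or 4 of the con-named or 1 or 2 of the HF-named group was left out, with log2 fold changes of -0.79, -0.76, -0.77 and -0.76 and edgeR adjusted p of 0.0572, 0.0664, 0.0596 and 0.0625.

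Of the 14 cyclic AMP effector genes, all tested, 5 rose and 1 fell. Bves and Popdc3, which encode cyclic AMP-binding Popeye proteins, and Prkacb, a catalytic subunit of protein kinase A, rose by 0.30, 0.32 and 0.19 on the log2 scale (edgeR adjusted p = 0.00173, 0.0124 and 0.0150). With library totals Popdc3 and Prkacb no longer passed (0.20 and 0.07, edgeR adjusted p = 0.0822 and 0.344). Of 10 tested genes for proteins that anchor protein kinase A, 4 rose, among them Akap6 (log2 fold change 0.42, edgeR adjusted p = 0.00267), Akap1 (0.40, 0.00377) and Akap13 (0.36, 0.00406). Of 15 phosphodiesterase genes, whose enzymes break down cyclic AMP, 5 rose and 1 fell. Pde11a rose from 1.0 ± 0.332 to 2.66 ± 1.10 CPM (SD, n = 6 each; log2 fold change 1.40, edgeR adjusted p = 0.00388) and Pde7a from 48.0 ± 10.4 to 74.9 ± 10.6 CPM (SD, n = 6 each; 0.64, edgeR adjusted p = 0.00462). Pde4a rose by 0.21 on the log2 scale (edgeR adjusted p = 0.00825), which with library totals became 0.09 (adjusted p = 0.246). Of 13 cardiac substrates or partners of protein kinase A, 3 rose and 2 fell, including Ttn (0.40, edgeR adjusted p = 0.00179) and Ryr2, the sarcoplasmic calcium release channel gene (0.46, 0.00878).

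Downstream of the alpha1-adrenoceptors, 2 of 12 effector genes rose and 0 fell. Both encode protein kinase C isoforms: Prkca rose by 0.24 (edgeR adjusted p = 0.0136) and Prkce by 0.18 (edgeR adjusted p = 0.0124) on the log2 scale. With library totals they were at 0.12 and 0.06 (edgeR adjusted p = 0.175 and 0.339), so neither call held there. Of 13 tested RGS genes, whose proteins speed G protein shutoff, 2 fell. Rgs2, whose protein acts on the G proteins of alpha1-adrenoceptors, fell from 45.0 ± 13.5 to 27.8 ± 9.04 CPM (SD, n = 6 each; log2 fold change -0.69 with an SE of 0.21, edgeR adjusted p = 0.0365). The Rgs2 call was lost in 7 of 12 fits without 1 library, with edgeR adjusted p of 0.0823, 0.0732 and 0.0690 without con-named replicate 1, 3 or 4 and of 0.0704, 0.0799, 0.0563 and 0.0748 without HF-named replicate 1, 2, 3 or 6. The authors' deposited table gives an adjusted p of 0.113 for Rgs2 and of 0.0828 for Rgs16. Rgs16 had a log2 fold change of -0.69 (edgeR adjusted p = 0.0393). Its call was lost in 8 of 12 such fits, with edgeR adjusted p of 0.0543, 0.0819, 0.09 and 0.0577 without con-named replicate 1, 2, 4 or 5 and of 0.0780, 0.0836, 0.0690 and 0.0615 without HF-named replicate 1, 4, 5 or 6.

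Genes that make, take up or degrade the ligands were measured too. Of 9 tested catecholamine genes, 2 rose and 1 fell. Slc22a3, which encodes an extraneuronal catecholamine transporter, rose from 6.73 ± 1.15 to 11.1 ± 1.07 CPM (SD, n = 6 each; log2 fold change 0.72, edgeR adjusted p = 0.000996). Ddc, which encodes the decarboxylase that makes dopamine, fell from 8.79 ± 1.15 to 5.00 ± 1.46 CPM (SD, n = 6 each; -0.80, edgeR adjusted p = 0.00566), with all 6 HF-named libraries below the con-named ones. Of 7 tested genes of adenosine handling, Entpd1, which encodes an enzyme that breaks down extracellular ATP, fell (-0.29, edgeR adjusted p = 0.0245). That call failed when replicate 4 of the con-named or 5 or 6 of the HF-named group was left out, with log2 fold changes of -0.28, -0.26 and -0.25 and edgeR adjusted p of 0.0524, 0.0579 and 0.0522. Of the acetylcholine genes 2 of 5 were tested and neither passed.

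The libraries held 14443186 to 22048689 counts, at which 3 counts correspond to 0.142 to 0.217 CPM. Mitochondrial genes took 21% to 24% of counts in con-named and 23.9% to 27.2% in HF-named libraries. Ventricular muscle markers were abundant, at 59806 to 68011 CPM in con-named and 61691 to 68113 CPM in HF-named libraries, and of these 10 genes 1 was higher and 5 were lower. Of 10 genes each, 4 fibroblast, 3 endothelial and 3 macrophage markers were lower and none higher. The summed levels of these 3 lists were 1389 to 1716 and 1108 to 1362 CPM (fibroblast), 1456 to 1855 and 1156 to 1718 CPM (endothelial), and 234 to 316 and 192 to 261 CPM (macrophage) in the con-named and HF-named libraries. The sum of the mural cell markers went the other way, with 1288 to 1464 CPM in con-named and 1475 to 1677 CPM in HF-named libraries. These sums did not overlap, although 0 of 9 tested genes passed. The largest parts were Rgs5 (means 625 and 718 CPM) and Abcc9 (359 and 386 CPM). Not every mural marker rose: Kcnj8 and Pdgfrb had log2 fold changes of -0.05 and -0.03. Rgs5, the most abundant gene of the list, had a log2 fold change of 0.20 (edgeR adjusted p = 0.0504) and was among the genes most like Grk5. None of these markers was at 0 in all libraries, and the part of cell mixture or of the mitochondrial share in the differences of Adra1a, Grk5 and Drd2 was not tested.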

How the data were processed

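Ventricular poly-A RNA of 12 samples was sequenced (per the labels' protocols). The main deposited file gives read counts per gene, not normalized, with FPKM made by the authors beside them, and each FPKM equals the count over library total and 1 gene length. The tools HTSeq 0.9.1, HISAT2 2.0.5 and cutadapt 1.15 and the build mm10 are listed per the submitters' processing notes. Annotation release and strand setting: not given in the sources used here. The authors' deposited table of their comparison holds group means of scaled counts (a signal), the log2 fold change and p-values, raw and adjusted.

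Counts were filtered with filterByExpr, TMM-scaled and compared by the quasi-likelihood test of edgeR 4.0.16 (with limma 3.58.1 in R 4.3.3), two-sided, group being the single term, with Benjamini-Hochberg adjustment over 15114 features at 0.05. The fit was tested on simulated data. CPM use TMM-adjusted totals. Library totals ran from 14443186 to 22048689, and no same-group pair of libraries agreed within sampling noise. Alternatives were size factors and library totals in place of TMM, 2 other filters, a replicate term, each library left out, limma-voom and DESeq2 1.42.0. GENCODE M21 on GRCm38 gave positions and overlaps, and RefSeq the promoters.

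Named were the 9 members, the 3 called genes of smallest p per pathway list, all genes of the receptor families, the 3 genes most like each member (mean of at least 5 CPM, log2 CPM with a prior count of 2) and, where used, the most abundant gene of a marker list. The conduction list used log2 CPM with a pseudocount of 0.5. The members and lists were chosen with earlier results of these data known. The design text states fewer bulk samples per group than the 6 labelled. Some genes of these lists and 1 sequence are not reported here.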

Additional observations from a re-analysis of the deposited data

Results flagged for a closer look

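In the con-named group, Adra1a stood at 9.16 CPM in replicate 5, while the other 5 libraries of the group held 14.3 to 16.7 CPM. The gap to the nearest of them was a larger share of the group's range than Dixon's 95% critical value for 6 samples. Each of the 9 members was examined in both groups, 18 in all, and this was the 1 value that stood apart. Chance alone marks about 1 in 20 such groups. Without this library the log2 fold change of Adra1a was 0.47 and the edgeR adjusted p was 0.0212, so the difference between the groups still passed.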

How the results depend on the processing

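The calls for Adra1a and Grk5 held in all 12 fits that left out 1 library and in all 7 other alternatives, and that for Drd2 in the 7 others and in 7 of the 12. Scaling mattered most. With library totals in place of TMM the median over all genes moved on the log2 scale from -0.01 to -0.13, 3065 genes were called (483 higher, 2582 lower) and 6 members passed, adding Adra1b (-0.25, edgeR adjusted p = 0.0253), Adora1 (-0.33, 0.0457) and Arrb1 (-0.24, 0.0447), while Chrm2 turned to -0.055 and Gnas to -0.073. Leaving out 1 library gave 1355 to 2550 calls, 836 to 1581 higher and 500 (without HF-named replicate 4) to 969 lower, with 2 to 3 members. In those fits Chrm2 ran from -0.0036 (without con-named replicate 2) to 0.13 and Gnas from -0.0028 (without HF-named replicate 5) to 0.074, and the cause was not tested. Of 28 called pathway genes refitted, 22 passed in every fit without 1 library, 7 lost their call with library totals, 3 without the filter and 1 with limma-voom, and none changed sign. DESeq2 called 2360 genes. Same-numbered libraries did not deviate together (correlations -0.16 to 0.09). No pairing by number was seen, but 6 such correlations cannot exclude a weak one. With the replicate number as a block, 1131 genes were called (748 higher, 383 lower), 3 members among them (Drd2 -1.58, edgeR adjusted p = 0.0327), and 5 of the 28 pathway genes lost their call. These were Grk3, Gnb2, Gng7, Rgs16 and Prkce, and Gja5 of the conduction list also lost its call. Of the con-named libraries, 2 of 6 correlated best with their own number. No test was run on the 11 receptor genes that did not pass the filter on low counts.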
